A study of Rattus norvegicus with 27 samples.

Results

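Fully methylated CpG-rich bins are stretches of the rat genome that hold many CpG dinucleotides and yet are mostly methylated. They were found in the GapmeR experiment below, called the second table. The genome was divided into bins of 500 bp, and a CpG site entered where each of the 12 libraries had at least 10 reads. Members were chosen by their methylation level in the second table and had 10 or more such sites with a level over 80%, the mean over the 12 rats of the methylated share of all reads in the bin. This gave 2284 members among 28573 CpG-rich autosomal bins (7.99%) and 123616 autosomal bins with 3 or more sites. Levels in the second table are therefore a description. The 15 rats of the other experiment, the first table, were not used to choose them.

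Genomic DNA of the renal outer medulla was sequenced by RRBS (reduced representation bisulfite sequencing), where the enzyme MspI cuts at CCGG and short fragments from CpG-rich DNA are kept. Bisulfite converts unmethylated cytosine, which is then read as T, while methylated cytosine is still read as C. The animals were Dahl salt-sensitive (SS) rats, an inbred strain that becomes hypertensive on high salt, and each of the 27 libraries was 1 rat. In the second table, HS_DT rats (n = 4) received intrarenal GapmeRs, antisense oligonucleotides that lead to cleavage of their target RNA, against Dnmt3a and Tet3 at 2 mg/kg each. The Dnmt3a protein adds methyl groups to DNA, and Tet3 oxidises methylated cytosine. They ate 4% NaCl for a time given as 7 with no unit. HS_SCR rats (n = 4) received a scrambled GapmeR at 4 mg/kg and 4% NaCl for 7 days. The 0.4% salt rats (n = 4) underwent that surgery too, and their tissue was taken ahead of GapmeR and high salt. In the first table, MCW SS HS (n = 4) and CRL SS HS rats (n = 4) of colonies named MCW and CRL ate the purified AIN-76A diet and, starting at an age of 6 weeks, had it with 4% NaCl for 14 days. MCW SS LS rats (n = 3) ate AIN-76A with 0.4% NaCl until 8 weeks of age. CRL SS LS rats (n = 4) ate another diet, 5L2F with 0.75% NaCl, until the same age. Salt and diet type cannot be told apart in CRL rats, nor colony and diet type between MCW SS LS and CRL SS LS rats. Salt, GapmeR and time cannot be told apart between HS_SCR and 0.4% salt rats, nor between HS_DT and 0.4% salt rats. The numbers in the sample titles of the first table run in separate ranges for MCW and CRL rats. What they stand for is not given, and it cannot be told apart from colony. The tissue is a mixture of cell types, so fewer methylated cells and fewer methylated sites per cell cannot be told apart. Neither the knockdown nor the tissue label was checked, since no RNA was analysed here.

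Methylation of CpG dinucleotides is copied onto new DNA strands at cell division and covers most of the mammalian genome outside CpG islands. CpG islands, the CpG-dense stretches at many gene starts, are mostly free of it. Among the known exceptions are promoters of germline genes, which are methylated in somatic tissues and unmethylated in germ cells.

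Libraries held 174400859 to 257658964 CpG reads in the second table, with a median of 66 to 99 reads per common site, and 35040331 to 95102303 reads in the first, with a median of 24 to 66. HS_SCR replicate 4 had the lowest mean level over all common autosomal sites of the second table, at 28.8%, against 29.2 to 29.6% in the other 11 rats. The tables share no rats and hold other sites at other depths, so no level was tested across them.

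Members were placed beside genes through sequence. The deposited positions are on build rn5, for which no annotation was used here. The spacing of CpGs in RefSeq promoter windows of build GRCr8, each 250 bases before to 50 bases after a gene start, was matched to the listed positions of the same chromosome. Of 15380 autosomal windows with 8 or more CpGs, 9453 matched at 1 place, against 21 when the windows were matched to the next chromosome. A member had 3 or more common sites in the matched window of 20 genes. Below are the 250 bases before the start for 4 of them, on the gene's own strand, with every CpG in capitals. They show where the CpGs lie, and not that each is methylated, since levels were taken at common sites only. Ddx4 (germ cell RNA helicase of the piRNA pathway, chromosome 2, minus strand), Spaca1 (sperm acrosome membrane protein, chromosome 5, minus strand) and Tuba3a (alpha-tubulin of the testis, chromosome 4, minus strand) are germline genes. Tenm3 (teneurin, a cell adhesion protein of neurons, chromosome 16, plus strand) is not.

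Ddx4: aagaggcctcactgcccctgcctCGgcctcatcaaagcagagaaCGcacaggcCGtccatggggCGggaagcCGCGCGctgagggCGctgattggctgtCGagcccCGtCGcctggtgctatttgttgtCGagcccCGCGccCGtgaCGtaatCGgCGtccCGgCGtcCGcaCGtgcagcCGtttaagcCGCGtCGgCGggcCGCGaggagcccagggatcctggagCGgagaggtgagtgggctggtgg
Spaca1: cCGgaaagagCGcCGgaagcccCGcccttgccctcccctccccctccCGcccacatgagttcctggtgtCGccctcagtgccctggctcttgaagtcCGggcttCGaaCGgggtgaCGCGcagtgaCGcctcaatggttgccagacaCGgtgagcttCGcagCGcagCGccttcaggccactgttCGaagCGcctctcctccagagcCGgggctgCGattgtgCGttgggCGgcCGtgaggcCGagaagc
Tuba3a: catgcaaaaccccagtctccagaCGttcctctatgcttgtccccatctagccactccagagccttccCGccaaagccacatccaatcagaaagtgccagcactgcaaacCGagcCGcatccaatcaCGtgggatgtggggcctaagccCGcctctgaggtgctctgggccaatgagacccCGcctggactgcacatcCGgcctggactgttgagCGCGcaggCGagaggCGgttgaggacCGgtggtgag
Tenm3: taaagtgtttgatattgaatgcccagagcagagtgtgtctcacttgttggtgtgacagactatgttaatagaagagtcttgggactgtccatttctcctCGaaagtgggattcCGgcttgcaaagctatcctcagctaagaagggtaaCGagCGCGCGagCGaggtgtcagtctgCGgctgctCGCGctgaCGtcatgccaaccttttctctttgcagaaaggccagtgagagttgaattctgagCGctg

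These stretches held 30 CpGs at Ddx4, 24 at Spaca1, 13 at Tuba3a and 12 at Tenm3. The member at Ddx4, chr2:63545501-63546000 (rn5), had 14 common sites, and that at Spaca1, chr5:54010001-54010500, had 30. Those at Tuba3a, chr4:224815501-224816000, and Tenm3, chr16:46157501-46158000, had 14 and 16. The other 16 genes were Tuba3b, Ccdc185, Gcshl1, Hhipl1, Sec1, Tpt1l3, Trim52 and 9 with provisional LOC symbols. No window of the 20 matched on another chromosome. The motif TCCCGC, counted with its reverse complement GCGGGA, was in 5 of the 20 windows, and 41.1% of all 8570 matched windows hold it. CACGTG, its own reverse complement, was in 3, against 10.7% of all matched windows. Methylated promoters were rare among matched windows. Of 6141 windows with 5 or more common sites, 97.2% lay under 20%, 2.07% at 20 to 80% and 0.716%, 44 windows, over 80%.

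Of all CpG-rich bins, 21588 were under 20% methylated, here called unmethylated, and a further group of 4701 at 20 to 80% is called partly methylated. Levels ran on without a gap across the threshold for members. The members closest to it were at 80.01, 80.02 and 80.03%, and the closest CpG-rich bins below it were at 79.999, 79.995 and 79.990%. A further 2104 CpG-rich bins lay at 70 to 80%. Member levels had a median of 84.8% and reached 97.3%, at chr19:60998001-60998500. Of the 2284, 1179 were under 85%, 196 over 90% and 6 over 95%. Most were small, with a median of 12 sites, and 599 had exactly 10. The largest was chr1:102067001-102067500, whose 48 sites averaged 90.6% ± 0.88 (SD, n = 12 rats). Its nearest matched gene start was that of Scaf1, with the middle of the bin 8495 bases downstream of it.

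**Figure D1:**
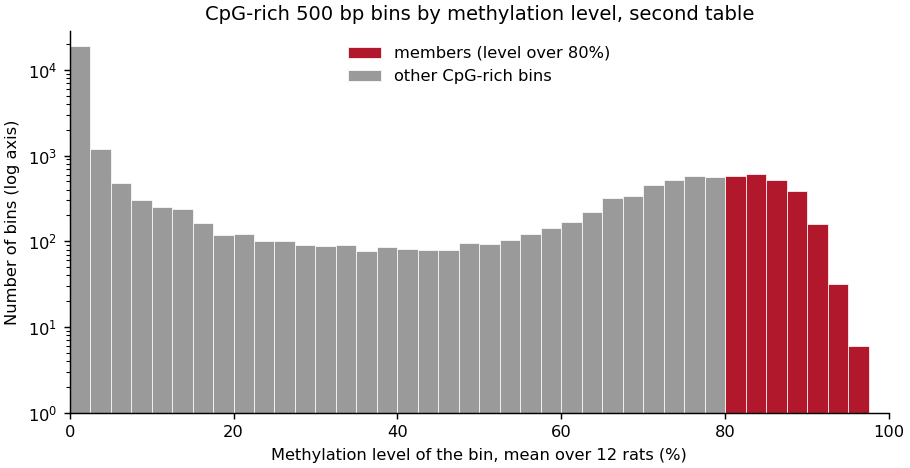
Number of CpG-rich 500 bp bins (log axis) by methylation level, the mean over the 12 rats of the second table in percent, with the 2284 members in red and the other CpG-rich bins in grey. Most CpG-rich bins sit near 0, and the members are the upper part of a second mode that continues below 80%.

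Few members were seen beside another member. No member bordered another in 2112 cases, 77 runs held 2 members, 3 held 3, and single runs held 4 and 5. Only 950 members had a neighbouring bin with 3 or more common sites. For the others the bins beside them were not measured, so these counts do not show that the methylated stretch ends there. Runs were not counted for other kinds of bins. The run of 5 was chr1:76170001-76172500, with bin levels of 89.4, 85.2, 91.3, 89.4 and 89.9%. The run of 4, chr1:154723501-154725500, had 82.3, 90.4, 93.8 and 83.9%. The matched gene start closest to the run of 5 was that of RGD1564801, 349934 bases from the middle of its last bin. For the run of 4 it was that of Nox4, an NADPH oxidase gene, with the last bin at -2381401 bases, which is upstream. Of 950 members with a measured neighbouring bin, 7 (0.737%) bordered a bin under 20%. The share was 1.68% of CpG-poorer bins over 80% (15029 bins with 3 to 9 sites), 10.2% of partly methylated and 98.5% of unmethylated CpG-rich bins. The middle of the bin lay within 2 kb of a matched start for 52 members (2.28%), against 1.40% of CpG-poorer bins, 4.15% of partly methylated and 49.2% of unmethylated CpG-rich bins. Members made up 5.62% of CpG-rich bins on chromosome 3, the lowest share, and 10.96% on chromosome 13, the highest. The counts at all positions of 124 members (5.43%) equalled those of another position in every library, against 4.68% of all CpG-rich bins.

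Within members the sites were not uniform. Of 30070 member sites, 62.2% were at 90% or more and 13.0% formed a second group at 20 to 60%. At matched promoters, where the sequence is known, these groups differed in the sequence around the CpG. The 38 member sites inside CCGG averaged 46.0%, with rat means of 44.7 to 46.9%, and the 145 other CpGs averaged 93.6%, with rat means of 92.7 to 94.5%. The rats of the first table had 47.7% at 9 CCGG sites and 93.3% at 41 other sites. CpG-poorer bins over 80% showed the same split, with 46.8% at 47 CCGG sites and 92.5% at 157 others. In partly methylated CpG-rich bins the means were 26.5% at 184 CCGG sites and 51.5% at 648 others. CCGG is the MspI site that forms the ends of RRBS fragments. Cut ends are filled in with added nucleotides during library preparation, and a cytosine added there does not report the tissue's methylation. Whether reads of such cytosines are in the counts was not tested, so a low level at a CCGG site, and its share in a bin's level, may not be the methylation of the tissue. Outside the matched windows the sequence around member sites was not known here.

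**Figure D2:**
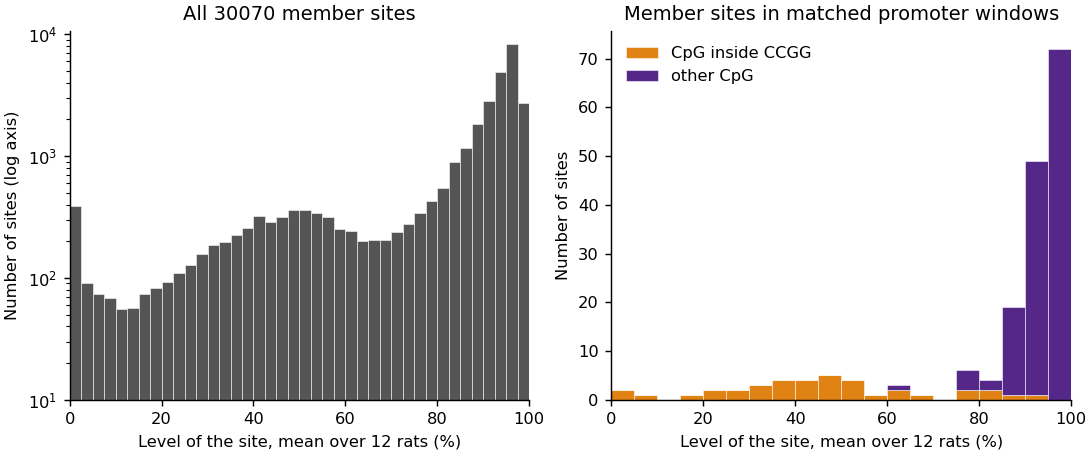
Left, number of member sites (log axis) by level, the mean over the 12 rats of the second table in percent; right, the 183 member sites in matched promoter windows, stacked, with CpGs inside CCGG in orange and other CpGs in purple. The left panel has modes near 95%, near 50% and at 0, and on the right the CCGG sites spread around a mean of 46.0% while the others average 93.6%.

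Some sites inside a methylated bin had almost no methylated reads. There were 479 member sites under 5% (1.59%) in 446 members, and 73 had no methylated read in any of the 12 rats. The deepest of these, at position 727701 of chromosome 3, had 0 methylated of 2119 reads, which allows a share of up to 0.142%, in a bin of 18 sites at 80.2%. The limit covers counting error only. These sites were shallower, with a median depth of 43.6 reads per rat against 84.4 at member sites of 50% or more. Of the 101 sites under 5% that were also common in the first table, 88 were under 5% there and 0 were at 50% or more. In matched promoter windows the member sites under 5%, at 0.26 and 0.0%, lay inside CCGG. The lowest other CpG there was at 64.9%. The limit given above for CCGG sites holds for them, and it may hold for the rest, whose sequence was not known here.

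Several members lay at or near starts of germline genes. A list of 28 genes expressed mainly in germ cells, written with earlier results of these data known, had 20 genes with a matched start, and 9 of them had a member within 2 kb. They made up 17.3% of the 52 members near a start. Besides Ddx4, Spaca1, Tuba3a and its paralog Tuba3b, these were Sycp1 and Sycp3, parts of the synaptonemal complex that joins chromosomes in meiosis, Dazl, an RNA-binding protein of germ cells, Mael, a piRNA pathway protein that represses transposons, and Prss21, a testis serine protease. Reads of Tuba3a and Tuba3b, which are paralogs, could be divided between them by the aligner, so their levels are uncertain.

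The list was not methylated throughout. Of its 9 windows with 5 or more common sites, 4 were over 80%, among them that of Psma8, a testis proteasome subunit, at 85.4% over 7 sites. Those of Piwil1, a piRNA-binding protein, and Tuba3b were at 64.5 and 77.6%. The windows of Tdrd6 (3.73%), a component of germ cell granules, Ddx25 (0.111%), a testis RNA helicase, and Zpbp2 (0.0888%), an acrosome protein, were unmethylated.

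**Figure D3:**
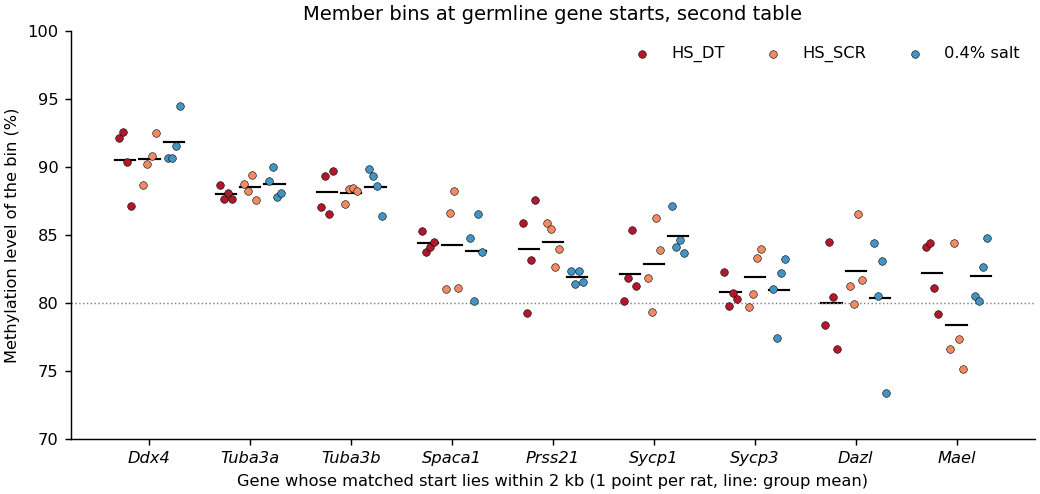
Methylation level (%) of the 9 member bins within 2 kb of a germline gene start in each rat of the second table, with HS_DT left, HS_SCR in the middle and 0.4% salt right for each gene, and lines at group means. The rats of the groups overlap at every gene except Prss21 between HS_SCR and 0.4% salt rats, and Dazl and Mael have the widest spread.

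The Ddx4 member was at 92.2, 92.6, 90.3 and 87.1% in HS_DT rats, 88.7, 90.3, 90.8 and 92.5% in HS_SCR rats, and 90.6, 90.7, 91.6 and 94.5% in 0.4% salt rats. The groups overlapped. The Spaca1 member was at 85.3, 83.8, 84.1 and 84.5% in HS_DT rats, 81.0, 86.6, 88.2 and 81.1% in HS_SCR rats, and 84.8, 80.2, 86.5 and 83.8% in 0.4% salt rats, with overlap again. Tuba3a and Tuba3b stayed between 86.4 and 90.02% in all 12 rats. The Mael member, chr13:89326001-89326500, was at 84.1, 84.4, 81.1 and 79.2% in HS_DT rats, 76.6, 84.4, 77.3 and 75.2% in HS_SCR rats, and 80.5, 80.1, 82.7 and 84.8% in 0.4% salt rats. HS_SCR rats held its 3 lowest values, but their highest lay within the other groups. The Prss21 member, chr10:13033501-13034000, was at 85.9, 85.5, 82.6 and 84.0% in HS_SCR rats and 82.3, 81.4, 82.4 and 81.5% in 0.4% salt rats. HS_DT rats had 85.9, 79.3, 83.1 and 87.5%, a range that covers both of these groups. HS_SCR and 0.4% salt rats did not overlap (unadjusted p = 0.028, adjusted p = 0.968 in the test of single members described below). Every HS_SCR rat was higher in this way at 1.23% of all bins. The SD over the 12 rats had a median of 2.37 points for the 9 germline members and 1.48 for the other members near a start. These sets were not matched for level or reads, and the difference was not tested. The largest SD near a start, 4.09 points, was at LOC120093824, which is not on the list.

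The design asks whether the GapmeRs or salt changed methylation. On average over the members, no group stood apart. The mean level over the 2284 members was 85.2% ± 0.155 in HS_DT rats, 85.2% ± 0.295 in HS_SCR rats and 85.2% ± 0.175 in 0.4% salt rats (SD, n = 4 each). HS_SCR replicate 4 was lowest, at 84.7%. Over the 1247 members with 3 or more common sites in the first table, it was 83.8% ± 0.252 in MCW SS HS rats (n = 4), 83.7% ± 0.392 in MCW SS LS rats (n = 3), 83.8% ± 0.321 in CRL SS HS rats and 83.8% ± 0.375 in CRL SS LS rats (SD, n = 4 each). The differences of group means lay between -0.0997 points, for MCW SS LS minus CRL SS LS rats (SE 0.294), and 0.101 points, for MCW SS HS minus MCW SS LS rats (SE 0.259). Each was smaller than its SE. HS_DT minus HS_SCR was 0.0487 points (SE 0.167).

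**Figure D4:**
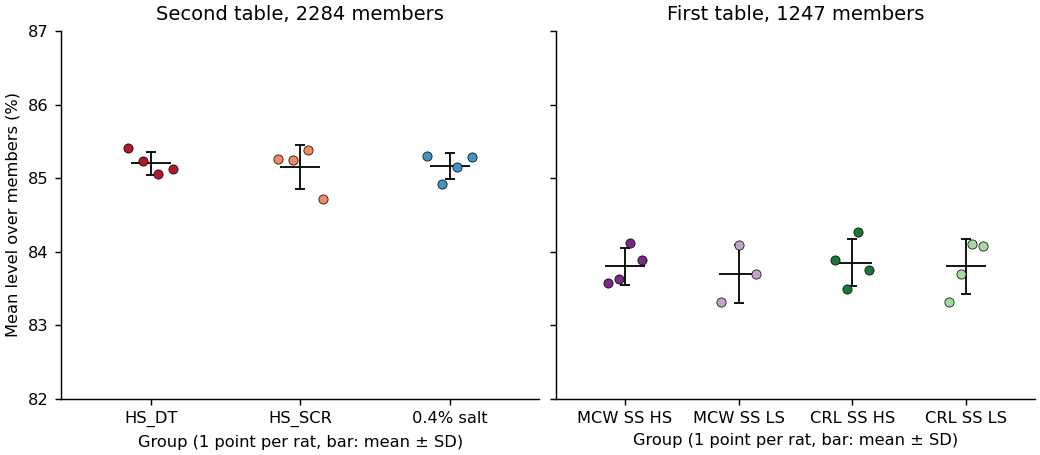
Mean methylation level (%) over the members in each rat, 1 point per rat with the mean and SD of each group, in the second table (left, 2284 members) and the first (right, 1247 members); the axis runs from 82 to 87%. Rats of every group overlap those of the other groups of the same table, from 84.7 to 85.4% on the left and 83.3 to 84.3% on the right.

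Single members were tested with a quasi-binomial logistic model of the read counts, 1 value per rat, fitted to all bins with 3 or more common sites, with Benjamini-Hochberg adjustment over them. A call is an adjusted p below 0.05. For HS_DT minus HS_SCR rats, 0 members and 0 of all 123616 bins (0.0%) were called, and limma on log ratios called 0 members. At an unadjusted p below 0.05 there were 84 members (3.68%) with the model, 47 higher and 37 lower, against 4.65% of all bins, and 40 members with limma. The groups did not overlap for 29 members higher in HS_DT rats and 24 lower, while they did not for 1.24 and 1.26% of all bins. The difference had a median of 0.0617 points and lay between -2.44 and 2.59 points for 95% of members. The largest were -6.15 and 8.01 points, so that no member moved by 10 points, against 0.612% of all bins. In this table members have 10 or more sites and all bins 3 or more, and members were chosen by level in these rats. The part of site number, read number and this choice in such contrasts was not tested in any comparison.

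Among non-overlapping members the lowest unadjusted p of each direction was at chr1:249259001-249259500 and chr6:6680501-6681000. The bin on chromosome 1, of 22 sites, was at 82.7, 84.6, 85.8 and 84.9% in HS_DT rats and 80.8, 81.4, 82.3 and 81.0% in HS_SCR rats. Every HS_DT rat lay above every HS_SCR rat, by 3.14 points of the means (SE 0.719, unadjusted p = 0.00199, adjusted p = 0.993). The bin on chromosome 6, of 11 sites, was at 85.8, 84.8, 85.8 and 85.9% in HS_DT rats and 90.2, 88.4, 89.4 and 87.9% in HS_SCR rats, lower in every HS_DT rat by 3.42 points (SE 0.568, adjusted p = 0.993).

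For HS_SCR minus 0.4% salt rats, 0 members and 0 bins (0.0%) were called, and limma called 0 members. There were 91 members (3.98%) at an unadjusted p below 0.05, against 4.9% of all bins, and 36 with limma. The groups did not overlap for 29 members higher in HS_SCR rats and 36 lower, while they did not for 1.23 and 1.33% of all bins. The bin with the lowest p among the higher, chr3:57787501-57788000, was at 90.8, 90.1, 90.2 and 88.9% in HS_SCR rats and 83.7, 88.5, 86.9 and 85.9% in 0.4% salt rats (adjusted p = 0.968). Of the lower, chr11:1911501-1912000 was at 83.9, 81.1, 82.9 and 81.1% in HS_SCR rats and 86.0, 85.7, 85.5 and 84.6% in 0.4% salt rats, with the same adjusted p. No member moved by 10 points, against 0.661% of all bins. Both differences were under 4 points, at 3.74 and -3.24 (SE 1.09 and 0.764).

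For HS_DT minus 0.4% salt rats, which share the 0.4% salt rats with the comparison before, 0 members and 0 bins (0.0%) were called, and 0 members with limma. At an unadjusted p below 0.05 there were 109 members (4.77%), against 5.15% of all bins, and 61 with limma. There were 40 members with every HS_DT rat higher and 30 with every HS_DT rat lower, while 1.45 and 1.43% of all bins had these patterns. The member of lowest p among the higher, chr1:97175001-97175500, was at 85.9, 83.5, 85.3 and 82.8% in HS_DT rats and 81.5, 80, 79.8 and 78.0% in 0.4% salt rats, a difference of 4.54 points (SE 1.03, adjusted p = 0.945). No member moved by 10 points, against 0.663% of all bins.

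The first table tested 1247 of the 2284 members. In 15 rats the rule did not use, 966 of them (77.5%) were again over 80%, against 13.2% of all bins there, with a median of 84.1%. At the 10254 member sites common to both tables the rat means ranged over 81.8 to 82.8% (first table) and 81.97 to 82.6% (second table). The lowest member, chr9:111617001-111617500, kept 3 of its 11 sites and was at 26.8% in the first table, and the same 3 sites were at 38.0% in the second. Over 1232 members with 3 or more shared sites, the first-minus-second difference had a median of -0.349 points and lay between -8.01 and 7.09 points for 95% of them.

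At the same sites, 24 members were 10 points or more lower in the first table and 20 were 10 points or more higher. At chr8:89896501-89897000, picked after its values were seen, the 9 shared sites were at 67.0 to 82.4% in the 15 rats of the first table, mean 74.5%, and at 88.2 to 95.3% in the 12 rats of the second, mean 92.3%. The ranges did not overlap, and they did not in 39 members lower in the first table and 9 higher. In the other direction, the 4 shared sites of chr8:129970001-129970500 were at 64.7 to 80.5% in the first table, mean 71.7%, and at 41.2 to 56.5% in the second, mean 49.7%. The bin at the start of LOC120102216, chr4:17879001-17879500, averaged 76.0% in the first table over 12 shared sites, against 90.5% in the second. Over all of its 19 common sites of the first table its level was 51.6%, with rats from 34.1 to 64.9%. Differences between the tables were counted for members only and not for all bins, so the counts cannot be read as particular to members. Animals, sequencing depth and processing of the tables cannot be told apart here.

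Salt gave no call in the first table. For MCW SS HS minus MCW SS LS rats, 0 members and 0 of 49683 bins (0.0%) were called, and 0 members with limma. At an unadjusted p below 0.05 there were 61 members (4.89%), against 6.24% of all bins, and 30 with limma. There were 33 members with every MCW SS HS rat higher and 37 with every one lower, while 2.48 and 2.24% of all bins had these patterns. A difference of 10 points or more was found at 7 members and at 2.03% of all bins. The lowest p among the lower was at chr2:195806501-195807000, at 82.9, 86.96, 82.7 and 80.8% in MCW SS HS rats and 89.8, 90.9 and 89.9% in MCW SS LS rats. The difference was -6.86 points (SE 1.35, adjusted p = 0.770). In CRL rats the high-minus-low-salt difference of this bin was -4.53 points (unadjusted p = 0.0157, adjusted p = 0.747). In the second table it went the other way, at 82.7, 82.7, 85.4 and 82.2% in HS_SCR rats and 83.1, 78.2, 80.05 and 79.5% in 0.4% salt rats, a difference of 3.03 points (unadjusted p = 0.0126, adjusted p = 0.968). Of the higher, chr12:7649001-7649500 was at 88.6, 89.1, 87.6 and 87.9% in MCW SS HS rats and 84.5, 86.3 and 84.4% in MCW SS LS rats.

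For CRL SS HS minus CRL SS LS rats, 0 members and 0 bins (0.0%) were called, with 0 members by limma. There were 39 members (3.13%) at an unadjusted p below 0.05, against 6.67% of all bins, and 25 with limma. Every CRL SS HS rat was higher at 26 members and lower at 13, and the same held for 1.37 and 1.23% of all bins. A difference of 10 points or more was found at 5 members and at 1.89% of all bins. Among the lower, chr10:101178001-101178500 was at 88.6, 80, 88.5 and 93.8% in CRL SS HS rats and 98.0, 96.8, 97.6 and 96.6% in CRL SS LS rats. The adjusted p was 0.747, with 60 to 187 reads per rat over 5 sites. The difference between the salt effects of the colonies, an interaction term, was called at 0 members and 0 bins (0.0%) by the model and at 0 members by limma. It had an unadjusted p below 0.05 at 65 members (5.21%), against 6.57% of all bins, and at 41 with limma.

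Colony gave no call either. For MCW SS LS minus CRL SS LS rats, 0 members and 0 bins (0.0%) were called, limma called 0 members, and 56 members (4.49%) had an unadjusted p below 0.05, against 5.99% of all bins, and 30 with limma. Every MCW SS LS rat was higher at 40 members and lower at 39, and the same held for 2.45 and 2.1% of all bins. A difference of 10 points or more was found at 7 members and at 2.1% of all bins. At chr7:121461501-121462000 MCW SS LS rats were at 82.04, 82.4 and 78.9% and CRL SS LS rats at 90.3, 91.4, 91.8 and 91.0%. This difference of -10.03 points (SE 1.16) had an adjusted p of 0.816. For MCW SS HS minus CRL SS HS rats, again 0 members and 0 bins (0.0%) were called, 0 by limma, with 51 members (4.09%) at an unadjusted p below 0.05, against 6.33% of all bins, and 42 with limma. Non-overlap was seen at 18 members higher in MCW SS HS rats and 28 lower, and at 1.4 and 1.19% of all bins. At 8 members and 1.9% of all bins the difference was 10 points or more.

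Single rats seldom fell out of line in the second table. A drop was counted where 1 rat lay at least 20 points below the median of the other rats of its table. Exactly 1 member (0.0438%) had one, against 0.958% of CpG-poorer bins over 80% and 1.11% of all bins. At 10 points or more there were 19 members (0.832%), against 9.67% of CpG-poorer bins and 13.9% of all bins, and 5 members with a rise of that size. Members also had more reads summed over their sites, with a median of 1115 per bin and rat against 359 in CpG-poorer bins. Their median SD over the rats was smaller, 1.46 points against 2.17. The part of read number in these differences was not tested.

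The member with the drop was chr7:68690001-68690500, of 12 sites. It was at 81.3, 74.4, 72.6 and 84.9% in HS_DT rats, 88.2, 81.3, 85.9 and 61.9% in HS_SCR rats, and 84.4, 80.5, 82.4 and 89.6% in 0.4% salt rats. HS_SCR replicate 4 lay 20.5 points below the median of the others, 82.4%. It had 1000 reads, summed over the sites, and a 95% Wilson interval of 58.9 to 64.9%. The same rat was at 67.2% over 2498 reads (interval 65.3 to 69.0%) at chr19:44075501-44076000, where the other rats had a median of 82.4% and HS_SCR rats the values 82.4, 81.6, 82.4 and 67.2%. This rat was also the lowest of the table over all common sites, and the part of that in its drops was not tested. In the read number of a bin, a read that covers several sites is counted at each of them. Wilson intervals of bins treat these counts as independent, so they can be too narrow.

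At chr5:158903501-158904000 rats of different groups were low. It was at 89.5, 90.4, 72.8 and 90.3% in HS_DT rats, 90.9, 93.1, 93.7 and 89.8% in HS_SCR rats, and 90.9, 84.0, 73.4 and 88.0% in 0.4% salt rats. One HS_DT and one 0.4% salt rat lay near 73%. In the first table, on 5 sites, it was at 60, 90, 80.5 and 94.1% in MCW SS HS rats and 75.4, 87.4 and 83.6% in MCW SS LS rats. CRL SS HS rats had 94.5, 92.9, 78.6 and 87.8%, and CRL SS LS rats 93.3, 88.6, 76.3 and 80%. The lowest of these rested on 50 reads (interval 46.2 to 72.4%), and every group of this table held a rat under 80.5%.

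**Figure D5:**
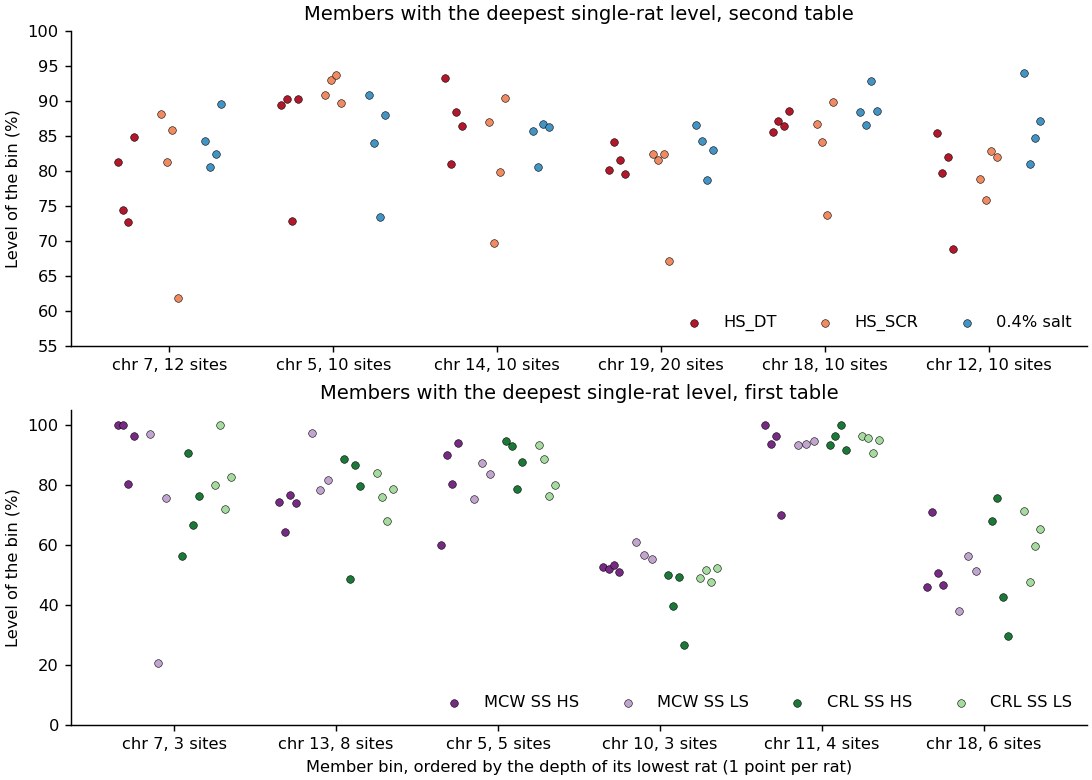
Methylation level (%) in each rat at the 6 members with the deepest single-rat drop of the second table (top, axis from 55%) and of the first (bottom, axis from 0), labelled by chromosome and number of sites, with groups in the order of the legend. At the top 1 rat lies apart at most members, as at 61.9% on chromosome 7, and at the bottom the members rest on 3 to 8 sites and spread widely.

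Drops were more frequent in the shallower first table, with 13 of 1247 members (1.04%) at 20 points or more, against 1.42% of CpG-poorer bins and 3.37% of all bins. At 30 points or more there was 1 member in the first table, where 0.471% of all bins had such a drop, and 0 in the second, where 0.109% did. With at least 20 reads per site the count at 20 points was 1. The deepest was chr7:59648501-59649000, where 3 sites gave 100, 100, 80.5 and 96.5% in MCW SS HS rats and 97.1, 20.5 and 75.6% in MCW SS LS rats. CRL SS HS rats had 56.4, 90.8, 66.7 and 76.5%, and CRL SS LS rats 80, 100, 72.0 and 82.6%. The value of 20.5% came from 78 reads (interval 13.0 to 30.8%), and rats of each CRL group were under 75% as well.

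The next was the bin of Mael, its middle 258 bases downstream of the start, on 8 sites. It was at 88.8, 48.5, 86.8 and 79.8% in CRL SS HS rats and 83.9, 76.1, 67.8 and 78.7% in CRL SS LS rats. MCW SS HS rats had 74.4, 64.2, 76.7 and 73.9%, and MCW SS LS rats 97.2, 78.2 and 81.6%. CRL SS HS replicate 2 was the lowest, at -29.999 points from the median of the others, on 262 reads (interval 42.5 to 54.5%). Every MCW SS HS rat lay below every MCW SS LS rat, a pattern found at 2.24% of all bins. The difference of -13.4 points (SE 6.48) was not called by the quasi-binomial model (unadjusted p = 0.0666, adjusted p = 0.770). In the second table the lowest rat of this bin differed by -5.96 points from the median of the others.

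Loss in a whole group was rarer still. It was counted where the group's mean lay at least 10 points below the mean of the other rats of its table and each of its rats below each other rat. In the second table this held for 0 members in HS_DT, HS_SCR and 0.4% salt rats, against 0.0146, 0.0146 and 0.0154% of all bins. Each rat of a group lay below all others, by any margin, at 2, 5 and 6 members, against 0.171, 0.192 and 0.18% of all bins. At 5 points or more there were 0 members in any of the 3 groups, against 0.0671, 0.0777 and 0.0663% of all bins. The largest gap of this kind was at chr14:101496501-101497000, at 80.6, 76.8, 79.3 and 79.8% in 0.4% salt rats, 4.62 points below the mean of the others. In the first table there was 1 member each in MCW SS HS and MCW SS LS rats, and 0 in CRL SS HS and CRL SS LS rats. In the same order of groups, the loss was seen at 0.0161, 0.0262, 0.00604 and 0.0362% of all bins. At 5 points or more the counts were 1 in MCW SS HS, 1 in MCW SS LS, 2 in CRL SS HS and 2 in CRL SS LS rats, while 0.0242, 0.0765, 0.0262 and 0.0765% of all bins had such a loss.

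The member in MCW SS HS rats had its middle 725 bases downstream of the Dazl start, chr9:11575501-11576000. On 4 sites it was at 75.4, 67.5, 73.4 and 73.5% in MCW SS HS rats and 83.5, 85.7 and 82.5% in MCW SS LS rats. CRL SS HS rats had 90.5, 76.6, 86.5 and 79.3%, and CRL SS LS rats 79.5, 79.1, 81.0 and 83.7%. The MCW SS HS rats lay 10.1 points below the mean of the others on 49 to 228 reads per rat. Against MCW SS LS rats the difference was -11.4 points (unadjusted p = 0.00706, adjusted p = 0.770). The difference of salt effects was -13.8 points (unadjusted p = 0.0165, adjusted p = 0.731), so neither was called. In the second table the Dazl bin, on 13 sites, was at 78.4, 84.5, 80.4 and 76.6% in HS_DT rats, 81.2, 79.9, 86.5 and 81.7% in HS_SCR rats, and 84.4, 80.5, 83.1 and 73.4% in 0.4% salt rats, and the groups overlapped.

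The member in MCW SS LS rats was chr12:26680501-26681000, with Bud23, an rRNA methyltransferase gene, as the nearest matched start 10855 bases away. On 4 sites it was at 78.6, 74.4 and 71.2% in MCW SS LS rats and 82.2, 87.4, 87.2 and 83.1% in CRL SS LS rats. MCW SS HS rats had 92.0, 83.9, 81.8 and 81.1%, and CRL SS HS rats 79.3, 90.8, 93.0 and 87.6%. The MCW SS LS rats lay 11.0 points below the mean of the others. Against CRL SS LS rats the difference was -10.2 points (unadjusted p = 0.00486, adjusted p = 0.816), which was not called.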

How the data were processed

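DNA of the renal outer medulla of 27 rats in 7 groups was measured by RRBS. The authors deposited 2 tables of counts, which per the file headers hold C and T reads for each CpG position and rat. Trim Galore 0.2.5 and the build rn5 are named, per the submitters' processing notes. For the aligner, the methylation caller and removal of PCR duplicates, nothing is stated in the labels used. Intervals cover counting error only, and those of bins count a read at each site it covers, so they can be too narrow. A missing value was read as 0 reads.

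From these counts, sites with 10 or more reads in every library of a table were kept and summed per 500 bp bin. Bins with 3 or more sites were fitted per comparison, using the 2 groups compared (all 4 groups of the first table for the interaction). A quasi-binomial logistic regression was used, with the Pearson dispersion moderated by squeezeVar of limma 3.58.1 (trend on log coverage, held at 1 or more) and a two-sided F test. limma was also run on log2((C+1)/(T+1)). The tables were tested separately. SE is the standard error of a difference of group means. Python 3.11.15, numpy 2.4.6, scipy 1.17.1, pandas 2.3.3, matplotlib 3.10.9 and R 4.3.3 were used. A RefSeq promoter window matched where at least 8 of its CpGs were listed at the right spacing, no listed position in it was another base, and the place was the only one.

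Named regions are the non-overlapping members of lowest p per comparison and direction, the members with the deepest loss per table, those with the most sites, the highest and lowest levels, the longest runs, and the largest SD. Members at gene starts and the bins compared between the tables were picked after their values were seen. Members, lists and the germline genes were chosen with earlier results of these data known. The letters RP mark 1 column each of MCW SS LS and CRL SS LS rats. In MCW SS LS rats the sample title has them at replicate 1 but the column of counts at replicate 2, which was followed. Alternatives were a minimum of 20 reads, a filter on the pooled level of 5 to 95%, limma, blocks, each rat left out, positions without copied counts, sites without very high depth, and other limits for members and losses.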

Additional observations from a re-analysis of the deposited data

Results flagged for a closer look

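A rat stood apart from the other 3 of its group in 13 of 210 groups of 4 examined at named members, by Dixon's test at the 95% level, which chance alone passes in about 1 in 20 groups. In HS_SCR rats these were replicate 4 at chr19:44075501-44076000 (67.2%) and chr11:50430001-50430500 (86.1%), replicate 3 at chr2:195806501-195807000 (85.4%) and replicate 1 at chr4:13025501-13026000 (84.5%). In HS_DT rats they were replicate 3 at chr5:158903501-158904000 (72.8%) and chr1:182361001-182361500 (85.05%), replicate 4 at chr3:57787501-57788000 (85.9%) and replicate 2 at chr6:6680501-6681000 (84.8%). In 0.4% salt rats they were replicate 2 at chr14:1466501-1467000 (80.6%) and chr7:59648501-59649000 (82.2%), and replicate 4 at chr10:101178001-101178500 (84.8%). In CRL SS HS rats replicate 3 stood apart at chr16:39726001-39726500 (88.7%) and chr16:67847001-67847500 (51.2%). Some named members were picked for a deep level in a single rat or a large SD, so the rate of 1 in 20 does not hold for them.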

How the results depend on the processing

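No member was called in any of 123 alternative fits, and the smallest adjusted p among them was 0.491, for limma on CRL SS HS minus CRL SS LS rats. With the replicate number as a block, 0 members were called in every comparison. Correlations of the rats' deviations lay between -0.0434 and 0.0194 for equal and -0.0580 and 0.0677 for unequal numbers. The labels do not say whether equal numbers pair rats, and correlations of methylation cannot decide it. The number of members depended on its limits, with 4388 at a level over 70%, 196 over 90%, 4099 with 8 or more sites and 552 with 15 or more, and lay between 1596 and 2204 under the 5 other settings. The share of members over 80% in the first table was 83.5% with at least 20 reads per site, 87.9% with 10 or more common sites and 58.9% as a mean of site levels. Drops in a single rat of the second table numbered 19 at 10 points and 0 at 30 points. In the first table they numbered 168 at 10 points, 1 at 30 points and 1 with at least 20 reads. At 5 points, 6 members had a loss in a single group. Leaving out each rat moved the difference of mean levels between -0.0932 and 0.299 points for MCW SS HS minus MCW SS LS, -0.114 and 0.167 for CRL SS HS minus CRL SS LS, -0.297 and 0.0947 for MCW SS LS minus CRL SS LS, and -0.166 and 0.0910 for MCW SS HS minus CRL SS HS. The ranges were -0.0926 to 0.132 for HS_SCR minus 0.4% salt, -0.0952 to 0.127 for HS_DT minus HS_SCR and -0.0439 to 0.0878 for HS_DT minus 0.4% salt. The sign of these differences, which were described and not tested, was not stable. The cause of these changes was not tested beyond the fewer sites or rats each setting leaves. Members with under 3 common sites in the first table were not tested there, and its levels rest on a median of 24 to 66 reads per site.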
